A study of Rattus norvegicus with 8 samples.

Results

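The endothelial genes described here are *Pecam1*, *Vwf*, *Cldn5*, *Flt1*, *Kdr*, *Flt4*, *Tek*, *Cdh5* and *Nos3*, a list of 9 named genes among the 22601 genes with a value in hippocampal RNA-seq of 8 Wistar rats. The genes were chosen by name as endothelial genes with results on their FPKM in these groups already in view, so the values of its members in the comparisons between groups are a description. No p-value of a member is printed, and the counts of members that pass the calling rule are given for description only, beside the share of all genes that pass it. The study asked which hippocampal transcripts differ after chronic kindling with pentylenetetrazole (PTZ), a blocker of GABA-A receptors that provokes seizures, and after treatment of kindled rats with Q808, an anticonvulsant compound. The Con. group (3 rats) was injected with saline and then given the solvent, and the PTZ group (3 rats) received 35 mg/kg PTZ every 48 h, 14 injections in 28 days, with 60 mg/kg on the last day, and then the solvent. The Q808 group (2 rats) was kindled in the same way, followed by daily gavage of 30 mg/kg Q808 over 28 days. PTZ and Q808 rats were given a further sub-convulsive dose of PTZ on the day after the last gavage, before the tissue was taken, so the PTZ against Con. comparison holds kindling and a recent injection together. All rats were wild type, and sex and age were not given in the sources used here. Each library came from 1 rat, and its values are FPKM (fragments per kilobase of transcript, relative to all mapped fragments), which are scaled for gene length and for depth. The depth is unknown from these values, and read totals that the study lists were not used here, so the error of each value is the spread between rats alone.

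Endothelial cells line the blood vessels, and in the brain they are sealed to each other by tight junctions and carry transporters that together make up the blood-brain barrier. Their growth and survival are governed by vascular endothelial growth factors (VEGFs), which act on the receptor tyrosine kinases encoded by *Flt1*, *Kdr* and *Flt4*, and by angiopoietins, which act on the receptor encoded by *Tek*. *Pecam1*, *Cdh5* and *Cldn5* encode proteins of the contacts between endothelial cells, *Vwf* a large glycoprotein that is stored and secreted for platelet adhesion, and *Nos3* the endothelial nitric oxide synthase, which relaxes the vessel wall. In RNA from whole tissue, fewer cells of a type and less RNA per cell cannot be told apart.

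Some libraries stood apart from the rest of their group before any treatment was considered. The summed FPKM of 7 markers of striatal projection neurons reached 1610 (Con.-3), 739 (PTZ-3) and 758 (Q808-1), whereas the other 5 libraries lay between 58.7 and 80.1. The sum of the markers of hippocampal neurons was low in the same 3 libraries, at 56.9, 131 and 33.6 against 262 to 340. On that list *Spink8* went the other way at a low level, with 0.365, 0.254 and 0.585 FPKM against 0 to 0.14. *Grp* was highest in PTZ-3 at 11.9 FPKM. These 3 libraries thus go against their tissue label in part. They include 1 library of each group, so the comparisons of the members as a set are given below with them, without them, and within them. For single genes and for the other lists such values are given in part. Without these 3 libraries the Q808 group is Q808-2 alone, and its spread is taken from the other libraries. Where Q808-1 or Q808-2 is left out, 1 Q808 rat likewise remains, so calls in these fits rest on that rat alone.

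In the Con. group the members covered a wide range of levels. *Cldn5* was the highest at 47.4 ± 1.82 FPKM (SD, n = 3), followed by *Flt1* at 7.85 ± 1.02, *Pecam1* at 6.26 ± 0.33 and *Tek* at 4.67 ± 0.248. *Vwf* (4.18 ± 0.406), *Cdh5* (3.74 ± 0.875), *Nos3* (3.07 ± 0.453) and *Kdr* (2.04 ± 0.621) came next, and *Flt4* was the lowest at 0.434 ± 0.0752 FPKM. The values of *Tek* and *Vwf*, of *Vwf* and *Cdh5*, of *Cdh5* and *Nos3*, and of *Nos3* and *Kdr* overlapped between neighbours in this order, while *Cldn5*, *Flt1*, *Pecam1* and *Flt4* did not overlap with the gene next to them. The order of these levels is on the FPKM scale, per length. All 9 genes passed the filter of a mean of at least 0.1 FPKM, and none was listed at 0 in any library.

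The members were highest in Q808-1 and, for most genes, next highest in PTZ-3. The FPKM of the 9 genes summed to 79.4, 78.3 and 81.3 in Con.-1, Con.-2 and Con.-3, to 92.4, 72.5 and 144 in PTZ-1, PTZ-2 and PTZ-3, and to 174 and 99.6 in Q808-1 and Q808-2. The Con. libraries lay close together, PTZ-1 and PTZ-2 lay on either side of them, and PTZ-3, Q808-1 and Q808-2 lay above. *Cldn5* contributes most to this sum, and the single genes shared its high values in PTZ-3 and Q808-1 but differed in PTZ-1 and PTZ-2. Q808-1 held the highest value of the 8 libraries for 9 of 9 members, as it did for 22.8% of all tested genes, and Q808-1 and PTZ-3 were the highest pair for 8 of 9, with *Flt4* the exception, against 15.6% of all tested genes. The median member was above its Con. mean by 0.21 on the log2(FPKM + 0.1) scale in PTZ-1, by 0.79 in PTZ-3, by 1.25 in Q808-1 and by 0.34 in Q808-2, and below it in PTZ-2 with -0.08. PTZ-3 and Q808-1 both belong to the libraries with high striatal markers. Con.-3, whose striatal sum was the highest of all, had a member sum like those of Con.-1 and Con.-2. With 1 such library in each group, the part of the dissected region in these sums was not tested.

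**Figure D1:**
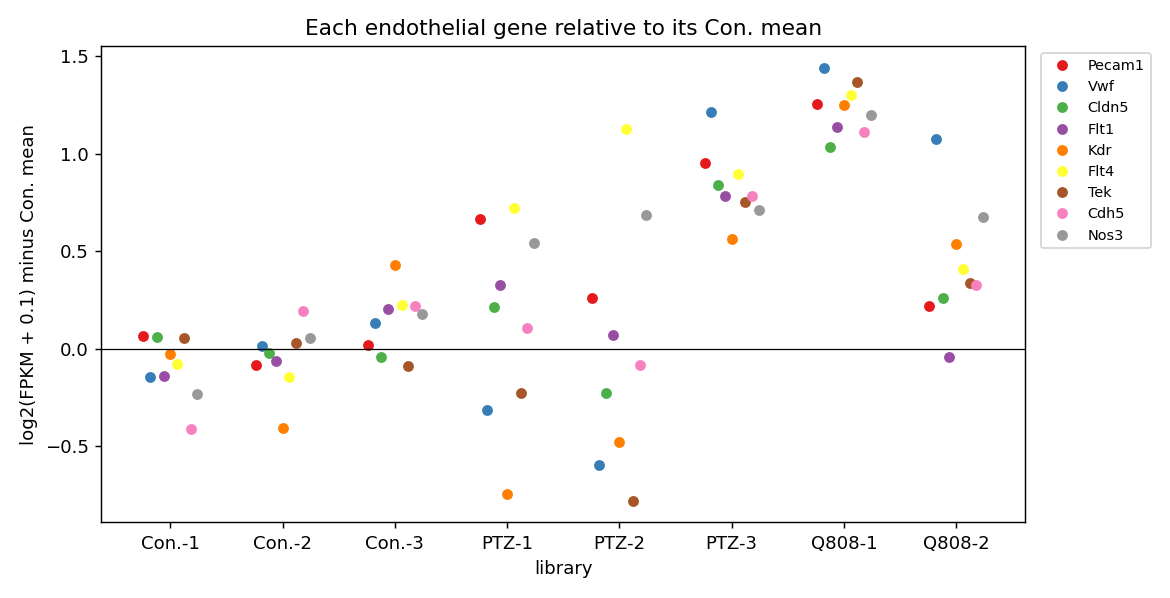
Log2(FPKM + 0.1) of each endothelial gene minus its mean in the Con. group (y axis) in each of the 8 libraries (x axis), with 1 point per gene. All 9 genes lie above 0 in PTZ-3 and Q808-1, while in PTZ-1 and PTZ-2 *Flt4*, *Pecam1* and *Nos3* lie above 0 and *Kdr*, *Tek* and *Vwf* below it.

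Among the genes of endothelial contacts, *Pecam1* was higher in every PTZ library than in any Con. library. *Pecam1* (GeneID 29583) encodes the adhesion molecule CD31 and measured 6.54, 5.90 and 6.34 FPKM in Con.-1 to Con.-3, 10.0, 7.51 and 12.2 in PTZ-1 to PTZ-3, and 15.1 and 7.29 in Q808-1 and Q808-2. The PTZ and Q808 libraries were all above the Con. libraries, and Q808-2 lay below all PTZ libraries while Q808-1 lay above them. On the log2(FPKM + 0.1) scale, which understates the change of low genes, the difference was 0.63 (SE 0.21) for PTZ against Con., 0.11 (SE 0.37) for Q808 against PTZ and 0.74 (SE 0.32) for Q808 against Con. Without the 3 libraries these were 0.48, -0.25 and 0.23. *Cldn5* (GeneID 65131), the main claudin of brain endothelial tight junctions, measured 49.5, 46.7 and 46.0 FPKM in the Con. libraries, 54.9, 40.5 and 85.0 in the PTZ libraries, and 97.1 and 56.8 in the Q808 libraries. Its PTZ values thus lay on both sides of the Con. values, and both Q808 values lay above all Con. values. The log2 difference was 0.28 (SE 0.26) for PTZ against Con. and 0.65 (SE 0.25) for Q808 against Con., and without the 3 libraries it was -0.03 and 0.24. *Cdh5* (GeneID 307618), the cadherin of endothelial adherens junctions, was more variable in the Con. group at 2.73, 4.20 and 4.28 FPKM, against 3.95, 3.45 and 6.39 in the PTZ group and 8.05 and 4.63 in the Q808 group. The Con. and PTZ values of *Cdh5* overlapped, and its log2 difference was 0.27 (SE 0.31) for PTZ against Con., 0.45 (SE 0.38) for Q808 against PTZ and 0.72 (SE 0.34) for Q808 against Con. Without the 3 libraries these were 0.12, 0.32 and 0.44.

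The VEGF receptors did not move as a group. *Flt4* (GeneID 114110) encodes VEGFR3, the receptor of VEGF-C and VEGF-D, and measured 0.403, 0.380 and 0.520 FPKM in the Con. libraries, 0.775, 1.06 and 0.887 in the PTZ libraries, and 1.21 and 0.606 in the Q808 libraries. No PTZ or Q808 value of *Flt4* fell into the Con. range, and PTZ-2, which had low values of most other members, had the second highest value of *Flt4*. Its log2 difference was 0.91 (SE 0.30) for PTZ against Con., a 1.88-fold higher level, and 1.04 without the 3 libraries. *Kdr* (GeneID 25589), which encodes VEGFR2, the main signalling receptor of VEGF-A, ran the other way in PTZ-1 and PTZ-2. It measured 1.94, 1.47 and 2.70 FPKM in the Con. libraries, 1.14, 1.39 and 2.97 in the PTZ libraries, and 4.85 and 2.92 in the Q808 libraries. PTZ-1 and PTZ-2 held the lowest values of *Kdr* and PTZ-3 lay above the Con. range. Its log2 difference was -0.22 (SE 0.41) for PTZ against Con., 1.12 (SE 0.49) for Q808 against PTZ and 0.90 (SE 0.37) for Q808 against Con. Without the 3 libraries these were -0.4, 1.15 and 0.75. *Flt1* (GeneID 54251), which encodes VEGFR1, a receptor that binds VEGF-A tightly and signals weakly, measured 7.07, 7.46 and 9.01 FPKM in the Con. libraries, 9.81, 8.19 and 13.5 in the PTZ libraries, and 17.3 and 7.57 in the Q808 libraries. Its groups overlapped in all 3 comparisons, and Q808-2 lay within the Con. range. The log2 difference of *Flt1* was 0.39 (SE 0.22) for PTZ against Con. and 0.55 (SE 0.37) for Q808 against Con., and without the 3 libraries the latter was 0.06.

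*Tek* and *Vwf* were low in PTZ-1 and PTZ-2 and high in the other kindled rats. *Tek* (GeneID 89804), which encodes the angiopoietin receptor Tie2, measured 4.86, 4.77 and 4.39 FPKM in the Con. libraries, 3.97, 2.68 and 7.93 in the PTZ libraries, and 12.2 and 5.92 in the Q808 libraries. PTZ-1 and PTZ-2 were below all Con. libraries, and PTZ-3 and both Q808 libraries were above them. The log2 difference of *Tek* was -0.08 (SE 0.38) for PTZ against Con., where it was -0.55 without the 3 libraries and 0.84 within them, and it was 0.93 (SE 0.52) for Q808 against PTZ and 0.85 (SE 0.33) for Q808 against Con. *Vwf* (GeneID 116669) measured 3.76, 4.21 and 4.57 FPKM in the Con. libraries, 3.33, 2.72 and 9.79 in the PTZ libraries, and 11.5 and 8.90 in the Q808 libraries. Like *Tek*, it was below the Con. range in PTZ-1 and PTZ-2 and above it in PTZ-3, and it was the member with the smallest log2 distance between Q808-1 and Q808-2. Its log2 difference was 0.10 (SE 0.46) for PTZ against Con., 1.16 (SE 0.55) for Q808 against PTZ and 1.26 (SE 0.20) for Q808 against Con., a 2.39-fold higher level. Without the 3 libraries these were -0.39, 1.53 and 1.14.

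*Nos3* was the member with the least spread within the PTZ group, relative to its level. *Nos3* (GeneID 24600) measured 2.58, 3.17 and 3.47 FPKM in the Con. libraries, 4.49, 4.98 and 5.06 in the PTZ libraries, and 7.14 and 4.93 in the Q808 libraries. All 5 kindled rats were above all Con. rats, and Q808-2 lay within the PTZ range. The log2 difference was 0.65 (SE 0.20) for PTZ against Con., a 1.57-fold higher level, 0.29 (SE 0.26) for Q808 against PTZ, and 0.94 (SE 0.26) for Q808 against Con. Without the 3 libraries these were 0.71, 0.06 and 0.76, and within them 0.53, 0.49 and 1.02.

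**Figure D2:**
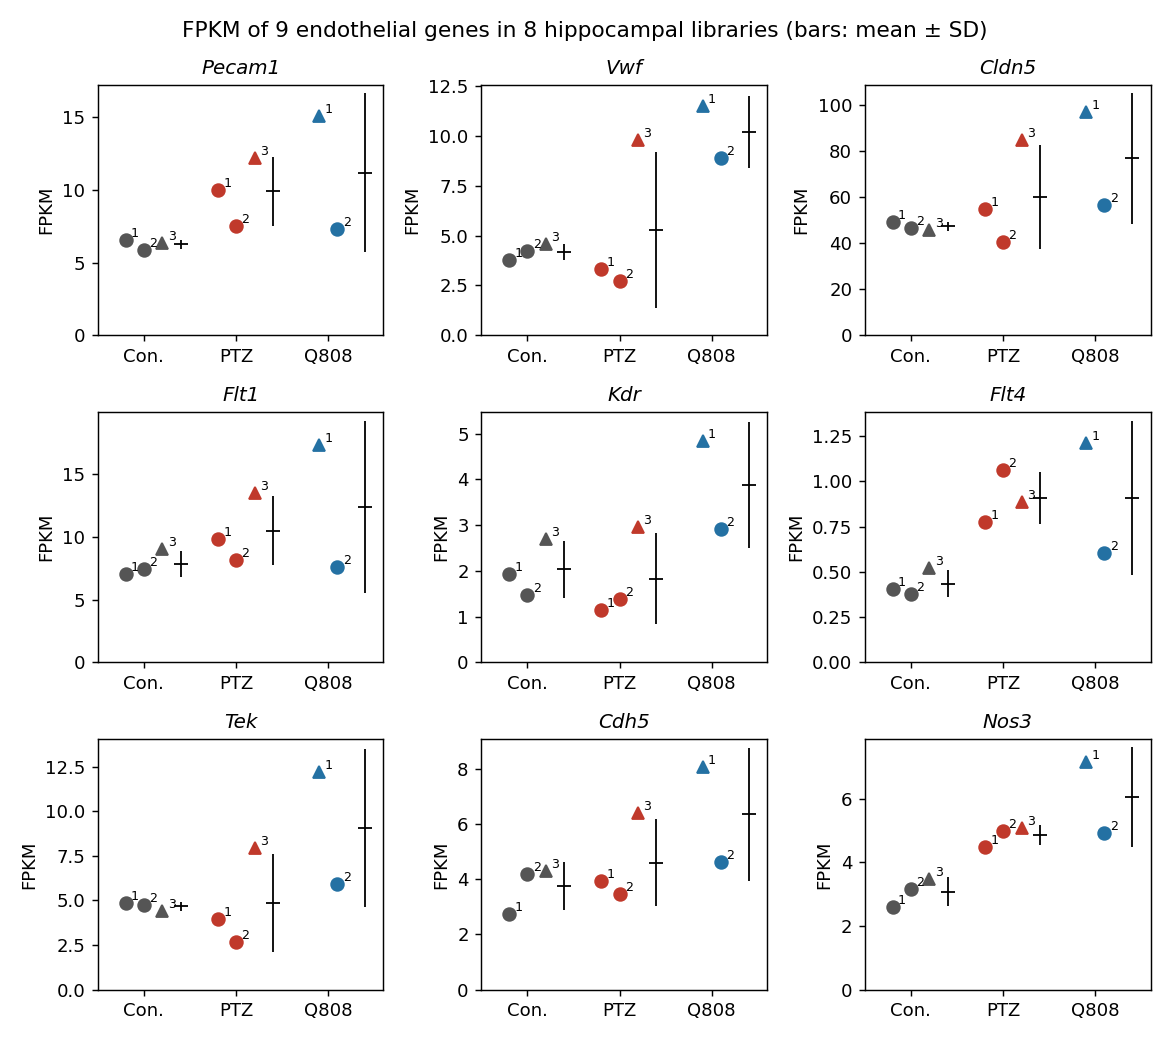
FPKM of the 9 endothelial genes, 1 panel per gene, in the Con., PTZ and Q808 groups, with 1 point per library, triangles for the 3 libraries with high striatal markers, and the mean ± SD of each group as a bar. *Nos3*, *Flt4* and *Pecam1* show no overlap between the Con. and PTZ libraries, and Q808-1 is the highest library in every panel.

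Promoters from RefSeq (assembly GRCr8) were at hand for 5 of the 9 members, *Cldn5*, *Flt1*, *Kdr*, *Flt4* and *Nos3*, as the 250 bases before the annotated start of the gene. Those of *Flt4* and *Nos3* are shown because no PTZ value of these genes overlapped with a Con. value, and that of *Kdr* because it is the receptor gene that was lowest in PTZ-1 and PTZ-2. They lie at chr10:34414584-34414833 on the plus strand (*Flt4*), chr4:11706582-11706831 on the minus strand (*Nos3*) and chr14:32571813-32572062 on the plus strand (*Kdr*), and are written from 5′ to 3′ in the direction of the gene, with the letters of the GC box, GGGCGG or CCGCCC on the other strand, in capitals.
Flt4: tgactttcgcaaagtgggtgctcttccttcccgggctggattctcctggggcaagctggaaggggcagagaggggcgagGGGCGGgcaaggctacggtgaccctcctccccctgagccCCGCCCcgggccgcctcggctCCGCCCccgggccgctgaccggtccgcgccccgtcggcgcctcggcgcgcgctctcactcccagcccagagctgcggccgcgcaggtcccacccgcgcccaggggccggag
Nos3: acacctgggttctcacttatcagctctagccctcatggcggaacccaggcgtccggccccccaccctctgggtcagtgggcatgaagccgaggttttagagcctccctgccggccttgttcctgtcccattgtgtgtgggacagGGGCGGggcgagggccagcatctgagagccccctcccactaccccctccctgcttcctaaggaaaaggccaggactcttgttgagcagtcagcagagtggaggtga
Kdr: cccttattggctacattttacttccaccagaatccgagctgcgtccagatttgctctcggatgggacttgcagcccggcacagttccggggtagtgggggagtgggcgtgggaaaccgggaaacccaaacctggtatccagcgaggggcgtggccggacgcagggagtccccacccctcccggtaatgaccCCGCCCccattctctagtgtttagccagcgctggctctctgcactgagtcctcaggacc

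The GC box, the letters read by Sp1 and related factors at many promoters, was in 5 of 5 member windows and in 32.4% of the 27457 windows of the same length in the table. *Flt4* held 3 matches, starting 171, 132 and 111 bases before the gene start, *Nos3* held 1 at 106 and *Kdr* held 1 at 59. The windows were rich in G and C, with 76.0% in *Flt4*, 73.2% in *Flt1*, 62.4% in *Nos3*, 61.6% in *Kdr* and 58.4% in *Cldn5*, against a median of 52% over all windows. Each of these shares is a description of letters. Of the motifs of endothelial factor families, the ETS letters CAGGAA and CCGGAA were each in 1 of 5 windows (24.6% and 13.4% of all), the forkhead letters TGTTTA in 1 (12.2%) and the GATA letters AGATAA in 0 (10%), all searched on both strands. The TATA letters TATAAA were in 1 of 5 (13.1%).

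In PTZ against Con., 3 of 9 members passed the rule used for calls in these data, an unadjusted p-value under 0.05 in limma and more than 1.5-fold change. They were *Flt4*, *Nos3* and *Pecam1*, all higher in PTZ, beside 2.53% of all 15593 tested genes, and the same 3 genes had groups that did not overlap, beside 9.15% of all genes. The median log2 difference of the members was 0.28, with -0.04 over all genes, and 7 of 9 were above 0, beside 43.0% of all genes. The replicate number as a block left the 3 calls as they were, beside 3.95% of all genes. With a pseudocount of 1 none of the 3 was called, beside 1.40% of all genes, and with all groups in 1 fit *Pecam1* was not, beside 2.59%. Without the 3 libraries, *Flt4* and *Nos3* were called, beside 9.81% of all genes, and the median was 0.12. Within Con.-3 and PTZ-3, where no test is possible, 5 members (*Cldn5*, *Flt4*, *Pecam1*, *Tek* and *Vwf*) were more than 1.5-fold higher in PTZ-3, as were 16.0% of all genes, and the median was 0.67. Single libraries decided part of this count. Without Con.-1 only *Pecam1* was called, beside 2.17% of all genes, and without Con.-2 only *Nos3*, beside 1.90%. The count was 2 without PTZ-1, without PTZ-2 and without PTZ-3, beside 1.89%, 1.60% and 7.28% of all genes. Without PTZ-3 the median was 0.01 and without PTZ-2 it was 0.53.

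In Q808 against PTZ, 0 of 9 members were called by limma, 0 had an unadjusted p-value under 0.05 and 0 had groups that did not overlap, beside 1.92% and 15.6% of all genes for the calls and for groups without overlap. The members' median log2 difference was 0.37, with 0.10 over all genes, and 8 of 9 were above 0, beside 61.7% of all genes. *Vwf* (2.23-fold), *Kdr* (2.17-fold) and *Tek* (1.91-fold) differed by the most, with PTZ-3 inside the Q808 range for each. Without PTZ-3 these 3 genes were called, beside 10.1% of all genes, and the median was 0.66. Without PTZ-1 and without PTZ-2, 0 members were called, beside 0.847% and 0.956% of all genes, with medians of 0.34 and 0.27. The direction rested in part on Q808-1. Without Q808-1 the median was 0.03, with 0.09 over all genes, and 5 of 9 were above 0. In Q808-2, *Pecam1*, *Flt1* and *Flt4* lay below all PTZ libraries. Without Q808-2 the median was 0.76 and 9 of 9 were above 0. Without the 3 libraries *Kdr* and *Vwf* were called, beside 9.26% of all genes, with a median of 0.27, and between PTZ-3 and Q808-1 alone *Kdr* and *Tek* were more than 1.5-fold higher in Q808-1, as were 10.7% of all genes.

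In Q808 against Con., 9 of 9 members were above 0 on the log2 scale, as were 55.3% of all genes, and 8 of 9, all but *Flt1*, had both Q808 libraries above all Con. libraries, as did 13.3% of all genes. *Vwf*, *Nos3*, *Cldn5* and *Tek* were called, 4 of 9 beside 3.46% of all genes, and the median was 0.85 with 0.04 over all genes. The size of the difference rested on Q808-1. Without Q808-1 the median was 0.34, and without Q808-2 it was 1.25. Each of these leaves 1 Q808 rat, so the spread comes from the Con. libraries alone. The count of called members was 2 without Con.-1 and without Con.-2, beside 2.40% and 1.79% of all genes. Without the 3 libraries *Nos3* and *Vwf* were called, beside 4.71% of all genes, with a median of 0.44, and between Con.-3 and Q808-1 alone all 9 members were more than 1.5-fold higher, as were 17.6% of all genes, with a median of 1.08. The comparisons share the PTZ or the Con. libraries with each other, so the same library enters several of these values.

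**Figure D3:**
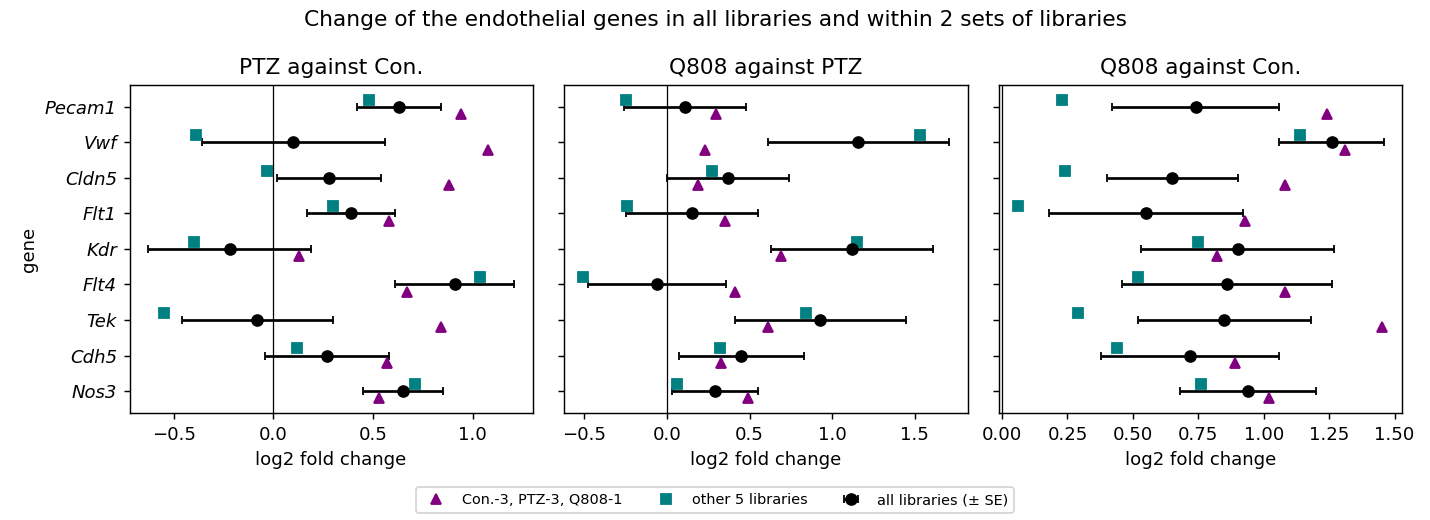
Log2 difference of each endothelial gene on the log2(FPKM + 0.1) scale (x axis) in the comparison of PTZ with Con. and of Q808 with PTZ and with Con., with all libraries and its standard error, without the 3 libraries with high striatal markers, and within those 3 libraries. For PTZ against Con., *Tek* and *Vwf* lie below 0 without the 3 libraries and above 0 within them, and in Q808 against Con. all values lie above 0.

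Each gene was also set against the mean of the other 8 members in the same library. Group differences on this scale keep the order of the PTZ against Con. differences by construction. They are no separate evidence, and the values are described by library. *Flt4* stood -3.42, -3.55 and -3.34 log2 units from the others in the Con. libraries and -2.79, -2.17 and -3.37 in PTZ-1, PTZ-2 and PTZ-3. It was thus higher relative to the other endothelial genes in PTZ-1 and PTZ-2, and at the Con. value in PTZ-3, where all members were high, and in Q808-1 and Q808-2 (-3.36 and -3.45). *Nos3* was also higher relative to the others in PTZ-1 and PTZ-2, at -0.70, -0.43 and -0.50 in the Con. libraries, -0.10, 0.23 and -0.68 in the PTZ libraries, and -0.58 and -0.26 in the Q808 libraries, the last above its Con. range. *Pecam1* was at 0.77, 0.55 and 0.45 in the Con. libraries and at 1.18, 0.89 and 0.73 in the PTZ libraries. These 3 genes were thus above their Con. range in PTZ-1 and PTZ-2, and PTZ-3 was within it for each. *Kdr* went the other way, at -1.15, -1.62 and -0.90 in the Con. libraries and -2.22, -1.76 and -1.53 in the PTZ libraries, and it was at -1.20 and -1.09 in the Q808 libraries. *Tek* was at 0.29, 0.21 and -0.13 in the Con. libraries, -0.29, -0.75 and 0.03 in the PTZ libraries, and 0.27 and 0.03 in the Q808 libraries. *Vwf* was at -0.11, 0.02 and -0.07 in the Con. libraries, -0.57, -0.72 and 0.37 in the PTZ libraries, and 0.18 and 0.68 in the Q808 libraries. The 2 sets of genes, *Flt4*, *Nos3* and *Pecam1* above and *Kdr*, *Tek* and *Vwf* below, were thus a feature of PTZ-1 and PTZ-2, whose striatal markers were low.

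Other genes of the endothelium were counted from lists of genes known from these cells. Of 24 other endothelial markers, all with values above 0 in all libraries, 0 were called in PTZ against Con. by limma (1 had an unadjusted p-value under 0.05), 1 in Q808 against PTZ and 9 in Q808 against Con., all higher in Q808. The 9 are 37.5% of the list, beside 3.46% of all genes, and 24 of 24 were above 0, with a median of 0.72. None passed adjustment over all genes (smallest adjusted p = 0.901 in limma). *Eng*, a co-receptor for TGF-beta family ligands, was at 9.65 ± 1.39, 11.8 ± 1.36 and 19.6 ± 6.27 FPKM in the Con., PTZ and Q808 groups. It was the gene called in both comparisons of Q808, with a log2 difference of 0.69 (SE 0.25) against PTZ and 0.99 (SE 0.25) against Con. *Clec14a*, an endothelial lectin-like receptor, was at 1.32 ± 0.175, 1.58 ± 1.08 and 3.00 ± 0.861 FPKM, and *Rasip1*, a Ras-binding protein of vessel lumen formation, at 4.33 ± 0.125, 5.66 ± 0.593 and 7.31 ± 1.58 FPKM. *Bmx*, a tyrosine kinase of arterial endothelium, was near the lower limit of these values at 0.0983 ± 0.0247, 0.217 ± 0.117 and 0.392 ± 0.00413 FPKM. The count in Q808 against Con. was 2 (*Bmx* and *Eng*) without Q808-1 (2.25% of all genes) as well as without the 3 libraries (4.71%), and 17 without Q808-2 (11.5%). In PTZ against Con. 3 were called without the 3 libraries, beside 9.81% of all genes, and in Q808 against PTZ 6 were called without PTZ-3, beside 10.1%.

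The blood-brain barrier list held the lowest p-values among the endothelial lists in PTZ against Con. *Slc2a1*, the glucose transporter of the barrier, was at 50.2, 52.0 and 58.7 FPKM in the Con. libraries, 94.5, 105 and 84.5 in the PTZ libraries, and 131 and 72.1 in the Q808 libraries. All kindled rats lay above the Con. rats, and the log2 difference of PTZ against Con. was 0.82 (SE 0.13, adjusted p = 0.999 in limma). *Mfsd2a*, a lipid transporter of the same cells, was at 10.5 ± 0.999, 16.8 ± 0.442 and 16.4 ± 4.10 FPKM, with a log2 difference of 0.67 (SE 0.13, adjusted p = 0.999 in limma). Both rose by the unadjusted rule, 2 of 20 genes in the list beside 2.53% of all genes, and like *Nos3* and *Flt4* they were high in PTZ-1 and PTZ-2. In Q808 against Con. 5 of 20 were called, *Lsr*, *F11r*, *Slc2a1*, *Mfsd2a* and *Itm2a*, beside 3.46% of all genes, and in Q808 against PTZ 0 were by limma (0 at an unadjusted p-value under 0.05), but 7 without PTZ-3, beside 10.1% of all genes, and 5 without the 3 libraries, beside 9.26%. Without Q808-1, Q808 against Con. called *Lsr* and *F11r* as higher and *Abcg2* as lower. *Lsr*, a protein of tricellular junctions, was at 4.96 ± 0.534, 5.77 ± 2.40 and 9.09 ± 1.17 FPKM, and *F11r*, a junctional adhesion molecule, at 4.67 ± 0.25, 5.06 ± 1.53 and 8.29 ± 1.30 FPKM.

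Without the 3 libraries, PTZ against Con. also called 5 genes of the barrier list as lower, which are named here after their values were seen. They were *Abcg2* and *Abcb1a*, efflux pumps, *Slco1a4* and *Slco1c1*, organic anion transporters, and *Ocln*, a tight junction protein, with log2 differences of -2.26, -0.68, -1.26, -0.68 and -1.62, in all 7 of 20 genes beside 9.81% of all genes. *Abcb1a* was at 6.74, 7.23 and 7.67 FPKM in the Con. libraries, 4.91, 3.82 and 14.7 in the PTZ libraries, and 17.0 and 8.02 in the Q808 libraries. PTZ-1 and PTZ-2 were thus below and PTZ-3 above the Con. range, as for *Tek*. *Ocln* was at 4.21, 4.01 and 3.76 FPKM in the Con. libraries, 1.77, 0.897 and 6.38 in the PTZ libraries, and 5.14 and 5.44 in the Q808 libraries. With all libraries none of the 5 was called in PTZ against Con., and the adjusted p-values without the 3 libraries were 0.0472 for *Abcg2* and between 0.109 and 0.166 for the others in limma. In the same fit *Slc2a1* was higher by 0.96 (adjusted p = 0.0241 in limma) and *Mfsd2a* by 0.75 (adjusted p = 0.0643 in limma). Markers of the choroid plexus epithelium, a tissue next to the hippocampus that also expresses some of these transporters, summed to 2530 and 2510 FPKM in Con.-1 and Con.-2 and to 409 and 277 in PTZ-1 and PTZ-2, and their part in the difference was not tested.

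Few ligands and partners of the VEGF and angiopoietin receptors were called. Of 15 such genes 0 were called by limma between Con. and PTZ or between PTZ and Q808 (0 at an unadjusted p-value under 0.05 in either), and 3 in Q808 against Con., *Tie1*, *Angpt2* and *Notch4*, beside 3.46% of all genes. Without Q808-1 none of the 3 was called, and without the 3 libraries *Tie1* was. In PTZ against Con. the replicate block called 2 of the 15, *Nrp1* and *Nrp2*, beside 3.95% of all genes. Both are co-receptors of VEGF that neurons also express. The fit without the 3 libraries called *Nrp1*, named here after its values were seen, beside 9.81% of all genes. *Nrp1* was at 22.3, 21.7 and 4.05 FPKM in the Con. libraries, 37.0, 40.3 and 5.39 in the PTZ libraries, and 5.37 and 18.1 in the Q808 libraries, low in the 3 libraries with high striatal markers. Without them its log2 difference was 0.81 (SE 0.10, adjusted p = 0.0381 in limma) for PTZ against Con. and -1.09 (SE 0.12, adjusted p = 0.174 in limma) for Q808 against PTZ. *Tie1*, the partner of the *Tek* product, was at 4.66, 3.94 and 5.89 FPKM in the Con. libraries, 4.78, 3.47 and 9.56 in the PTZ libraries, and 10.7 and 7.72 in the Q808 libraries, so it was high in the same 3 libraries as *Tek*. *Angpt2*, the angiopoietin made by endothelial cells themselves, was at 0.776 ± 0.161, 0.994 ± 0.0817 and 1.72 ± 0.195 FPKM, with a log2 difference of 1.07 (SE 0.31, adjusted p = 0.901 in limma) for Q808 against Con. Its Q808 values, 1.86 and 1.58, lay above all PTZ and Con. values. *Notch4*, a Notch receptor of endothelial cells, was at 2.77 ± 0.0709, 3.45 ± 0.392 and 4.44 ± 1.04 FPKM. *Angpt1*, the angiopoietin that activates Tie2, was at 0.656 ± 0.34, 0.687 ± 0.221 and 0.706 ± 0.383 FPKM, and *Vegfa*, the main VEGF ligand, at 27.4 ± 7.43, 35.7 ± 4.02 and 38.3 ± 9.97 FPKM, and neither was called in any comparison. Without the 3 libraries the PTZ against Con. log2 difference of *Vegfa* was 0.57 (SE 0.13, adjusted p = 0.124 in limma), just under the 1.5-fold limit. That of *Angpt1* was -0.45 (SE 0.35).

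Of 15 tested genes of endothelial activation and permeability, 2 were called in each comparison, beside 2.53%, 1.92% and 3.46% of all genes for PTZ against Con., for Q808 against PTZ and for Q808 against Con. The replicate block left 1 of the 2 calls in PTZ against Con., that of *Thbd*. *Thbd*, the thrombin receptor thrombomodulin, was at 0.904, 1.18 and 1.03 FPKM in the Con. libraries, 1.97, 2.37 and 2.25 in the PTZ libraries, and 1.69 and 2.82 in the Q808 libraries. The kindled rats were all above the Con. rats, with a log2 difference of 1.02 (SE 0.25, adjusted p = 0.999 in limma) for PTZ against Con. *Icam1*, a leukocyte adhesion molecule, was at 1.13 ± 0.356, 1.90 ± 0.248 and 2.42 ± 0.557 FPKM and was called against Con. in both PTZ and Q808, in PTZ only without the block. *Klf2* and *Klf4*, transcription factors induced by blood flow, were called in Q808 against PTZ but not without PTZ-1, PTZ-2, Q808-1 or Q808-2, with *Klf4* at 4.36 ± 1.43, 3.90 ± 1.77 and 7.08 ± 0.141 FPKM and *Klf2* at 13.4 ± 4.38, 11.4 ± 3.54 and 18.6 ± 2.15 FPKM. *Plvap*, a protein of fenestrated vessels that barrier endothelium lacks, was at 1.15 ± 0.586, 0.95 ± 0.494 and 1.24 ± 0.111 FPKM and was not called. Of 8 tested genes of nitric oxide and cGMP signalling, 0 were called in Q808 against PTZ by limma (0 at an unadjusted p-value under 0.05). When PTZ and Q808 were each compared with Con., 1 gene was called, beside 2.53% and 3.46% of all genes. It was *Gch1*, which encodes the first enzyme in the synthesis of the cofactor of nitric oxide synthases, at 0.346, 0.349 and 0.558 FPKM in the Con. libraries, 0.767, 1.12 and 0.648 in the PTZ libraries, and 1.04 and 0.867 in the Q808 libraries. Its groups did not overlap between Con. and PTZ, as for *Nos3*, but its call in PTZ against Con. was lost with the replicate block, with a pseudocount of 1 and with quantile normalization, and without any of Con.-1, Con.-2, PTZ-1 and PTZ-2. *Gch1* was called without the 3 libraries, with a log2 difference of 1.2 (SE 0.32, adjusted p = 0.166 in limma), beside 9.81% of all genes.

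**Figure D4:**
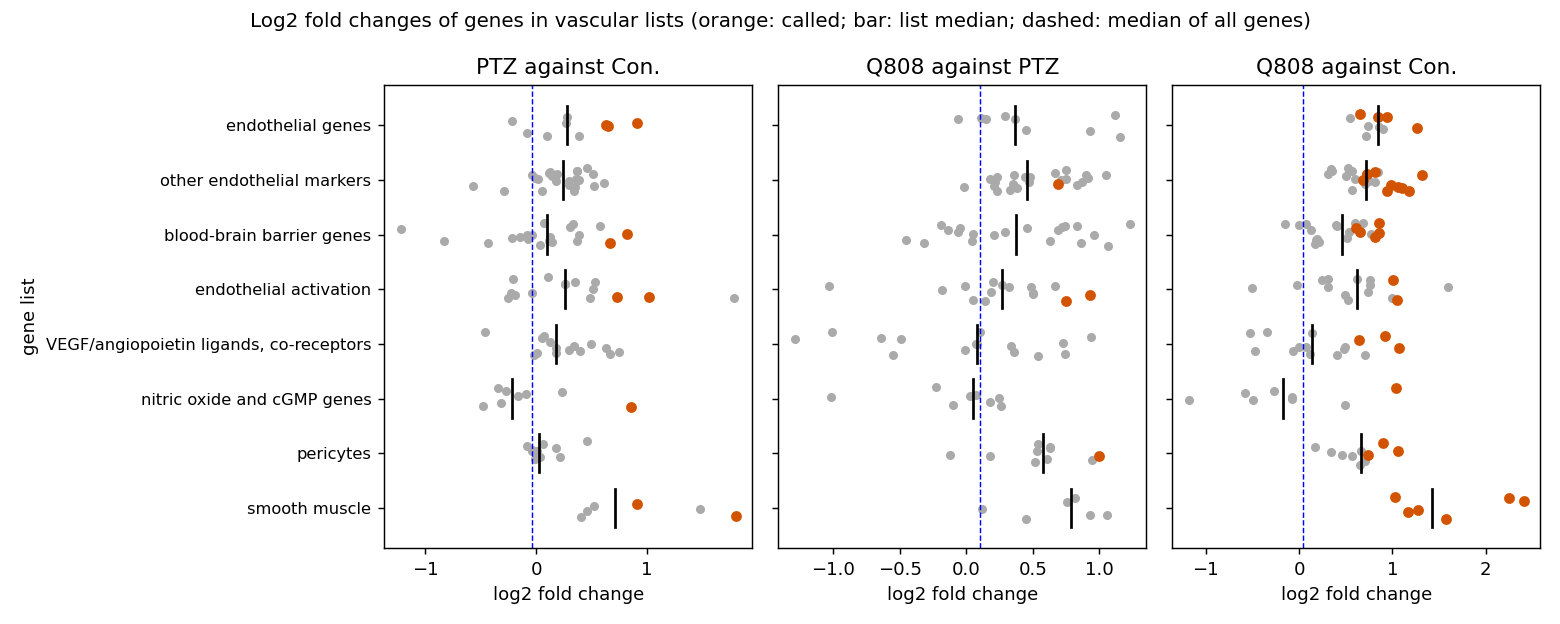
Log2 difference of each tested gene on the log2(FPKM + 0.1) scale (x axis) for the endothelial genes and the wider vascular lists (y axis), 1 panel per comparison, with 1 point per gene (orange where called), a bar at the median of each list and a dashed line at the median of all genes. In Q808 against Con. the medians of the 9 endothelial genes (0.85) and of the 24 other endothelial markers (0.72) lie above that of all genes (0.04).

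Other cells of the vessel wall were high in the same libraries. The summed FPKM of 6 smooth muscle markers was 31.8, 37.8 and 22.1 in the Con. libraries, 29.6, 25.4 and 104 in the PTZ libraries, and 67.3 and 89.3 in the Q808 libraries, and 6 of 6 rose in Q808 against Con. beside 3.46% of all genes. PTZ-3, Q808-1 and Q808-2 were thus the 3 highest libraries, as they were for *Vwf*, *Cldn5*, *Kdr*, *Tek* and *Cdh5*. The smooth muscle genes *Cnn1* and *Des* were the ones called in PTZ against Con., beside 2.53% of all genes. Only *Cnn1* was called with the replicate block (3.95% of all genes), and neither without the 3 libraries (9.81%). Without them Q808-2 is the only Q808 library, and its sum was 89.3 against 31.8 and 37.8 in Con.-1 and Con.-2. The sum of 10 pericyte markers was 61.1, 71.3 and 70.1 in the Con. libraries, 66.4, 53.7 and 95.1 in the PTZ libraries, and 144 and 85.6 in the Q808 libraries, and PTZ-2 was the lowest and Q808-1 the highest library, as for the sum of the 9 members. Of the pericyte list 3 of 10 rose in Q808 against Con., *Vtn*, *Anpep* and *Cspg4*, beside 3.46% of all genes. In Q808 against PTZ 1 rose (*Vtn*), beside 1.92%. In PTZ against Con. 0 were called by limma (0 at an unadjusted p-value under 0.05), beside 2.53%. The erythroid sum, a measure of blood left in the tissue, was 215, 150 and 101 in the Con. libraries, 316, 181 and 284 in the PTZ libraries, and 692 and 672 in the Q808 libraries, so Q808 rats had the highest values. Of 5 markers of perivascular macrophages, which lie along the vessels, 4 rose in Q808 against PTZ (*Cd163*, *Mrc1*, *F13a1* and *Pf4*), beside 1.92% of all genes, with *Mrc1* at 0.447, 0.157 and 0.503 FPKM in the PTZ libraries and 1.16 and 1.68 in the Q808 libraries. Platelet markers, with *Ppbp* and *Gp1bb* at 0 in all libraries, summed to between 1.76 and 9.17 FPKM. Q808-1 and Q808-2 had the highest platelet sums, 9.17 and 5.32. Most of both was *Pf4*, at 7.13 and 4.47 FPKM, the gene that is also on the macrophage list. Of 4 tested lymphatic markers 0 were called in any comparison by limma (0 at an unadjusted p-value under 0.05). Among them *Prox1* is also on the list of hippocampal neurons used here and *Lyve1* on that of perivascular macrophages. The count therefore says little about lymphatic vessels. The part of vessel content, blood or dissected region in the values of the 9 members was not tested.

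Cells outside the vessels also differed between the libraries. The oligodendrocyte sum was 4180, 2520 and 6560 FPKM in the Con. libraries, 4200, 3000 and 6640 in the PTZ libraries, and 13100 and 3220 in the Q808 libraries, highest in Q808-1 and next in PTZ-3 as for the members, but with Con.-3 close to PTZ-3. The microglia sum was 60.7, 58.3 and 64.6, 80.3, 59.9 and 85.7, and 138 and 75.1, in the same order of libraries, and again highest in Q808-1 and PTZ-3. The astrocyte sum varied less, from 1130 in Con.-3 to 1920 in Q808-1. Choroid plexus epithelium was highest in Q808-2 at 6440 FPKM and lowest in Con.-3 at 91.8, and meningeal fibroblasts were likewise highest in Q808-2 at 145 and lowest in Con.-3 at 7.97, while the members were highest in Q808-1.

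**Figure D5:**
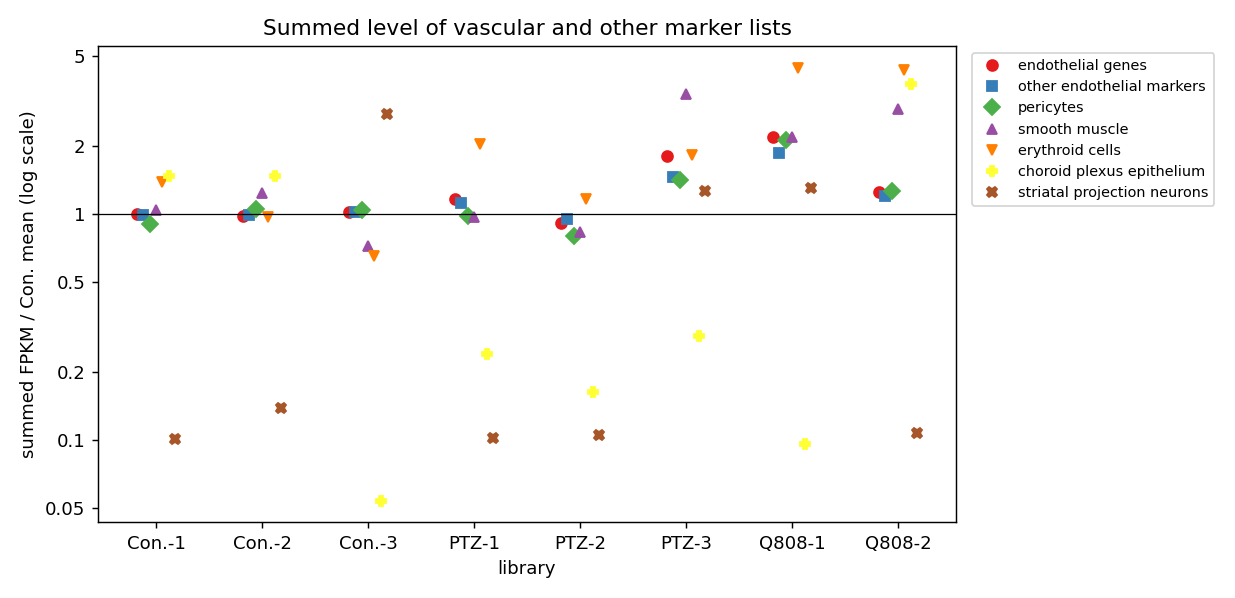
Summed FPKM of the 9 endothelial genes and of the marker lists of other cell types (each relative to its mean in the Con. group, log axis) in each of the 8 libraries. Endothelial genes, pericytes and smooth muscle are high in PTZ-3 and Q808-1, while the choroid plexus sum is highest in Q808-2 and the striatal sum is above its Con. mean in Con.-3, PTZ-3 and Q808-1 and below it in the other 5 libraries.

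The genes whose pattern over the 8 libraries was most like the mean of the 9 members were *Ahnak*, *Ppp1r18*, *Lrig3*, *Itih3* and *Ptprb*. Likeness was measured as the root mean square difference between centred log2(FPKM + 0.1) profiles, and it was 0.078, 0.099, 0.102, 0.105 and 0.105 for these genes, with a median of 0.481 over 12555 other genes with a mean of at least 1 FPKM. *Ahnak* was at 1.33, 1.48 and 1.74 FPKM in the Con. libraries, 1.65, 1.51 and 2.90 in the PTZ libraries, and 3.82 and 2.39 in the Q808 libraries. *Ptprb*, an endothelial phosphatase that acts on Tie2 and VEGFR2, was at 3.40, 3.45 and 4.13, 3.26, 3.37 and 6.39, and 8.55 and 4.27 FPKM. Among the members themselves *Cldn5* (0.136) and *Cdh5* (0.150) were nearest to the common profile, of which they are part, and *Kdr* (0.361), *Vwf* (0.384) and *Flt4* (0.390) were farthest from it. The points are the same 8 libraries for all genes.

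By the annotation deposited with the values, 8 of 9 members, all but *Vwf*, were assigned to the plasma membrane, as were 16.9% of 14149 annotated genes. *Cdh5*, *Flt1*, *Kdr*, *Nos3* and *Tek* carried the term positive regulation of angiogenesis, as did 0.855% of those genes. *Cdh5*, *Cldn5* and *Pecam1* were in the KEGG pathway of leukocyte transendothelial migration, as were 1.74% of 5625 genes with a pathway. None of these terms divided the members into the sets seen in PTZ-1 and PTZ-2, since *Nos3* shared the angiogenesis term with *Kdr* and *Tek*.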

How the data were processed

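RNA-seq covered the hippocampus of 8 rats (3 Con., 3 PTZ, 2 Q808), 1 library each, grouped by their labels. The deposited FPKM per gene were computed by the authors with Cufflinks from reads trimmed with Trimmomatic, and carry GO and KEGG annotation. The study's methods give HTSeq for read counts and DESeq for tests on them, which were not used here. The submitters' processing notes also name HISAT2, Bowtie2, StringTie and SAMtools, with no role or version, and the genome build is not given in the sources used here. FPKM keep no read counts, so no counting error was attached.

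Genes were listed by GeneID, and 20633 received a symbol from the RefSeq table of GRCr8, used for names and promoters only. Genes whose mean was at least 0.1 FPKM (15593) were tested on log2(FPKM + 0.1) with limma 3.58.1 in R 4.3.3, with a trended empirical Bayes fit on the 2 groups of each comparison. Calls needed a limma p-value below 0.05 before adjustment, together with a fold change above 1.5. Adjustment was by Benjamini-Hochberg over all genes, by which 1 gene in Q808 against Con. and 0 genes in the other comparisons had an adjusted p-value under 0.05 (limma, with 667, 589 and 341 at an unadjusted p under 0.05 in Q808 against Con., PTZ against Con. and Q808 against PTZ). Tables and plots were made with Python 3.11.15, pandas 2.3.3, numpy 2.4.6 and matplotlib 3.10.9. The fit was tested on simulated data.

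The members, the gene lists and the 3 libraries set apart were chosen with earlier results of these data known. Genes named were the members, up to 4 genes per pathway list and comparison with the smallest p-values among those called, *Vegfa*, *Angpt1*, *Angpt2*, *Tie1*, *Slc2a1* and *Plvap*, and the 5 genes most like the members, and further genes of the cell type lists and *Itm2a* were named as the few called in their lists. Same-numbered libraries deviated together in PTZ against Con., with correlations of 0.212, 0.299 and 0.422 over genes. The last is that of Con.-3 and PTZ-3, which both have high striatal markers. The labels name no pairs, so the main fit was unpaired, and the replicate number entered as a block only in an alternative fit. Alternatives were other pseudocounts, filters and scalings, all 3 groups in 1 fit, the replicate block, groups without overlap, and libraries left out.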

Additional observations from a re-analysis of the deposited data

How the results depend on the processing

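All genes called in PTZ against Con. numbered 395, and 219 with a pseudocount of 1, 616 with the replicate block, 1530 without the 3 libraries with high striatal markers and 1426 by groups that do not overlap. In Q808 against PTZ they numbered 300, and 193 at a mean of at least 1 FPKM, 1894 with the replicate block, 1444 without the 3 libraries and 2440 by overlap. In Q808 against Con. they numbered 540, and 340 with a pseudocount of 1, 1076 with the block and 3125 by overlap. Members called in PTZ against Con. fell from 3 (2.53% of all genes) to 0 with a pseudocount of 1 (1.40%). Their median was 0.67 within the 3 libraries. In Q808 against PTZ they were 0, beside 1.92% of all genes, and 2 with all groups in 1 fit, beside 2.59%. With the block they were 4 (*Cldn5*, *Kdr*, *Tek* and *Vwf*), beside 12.1%. The Q808 group has no library numbered 3, so PTZ-3 or Con.-3 is alone in its block and adds nothing to a Q808 difference. The members' block medians, 0.66 against PTZ and 0.83 against Con., are thus those without PTZ-3 and without Con.-3. Without the 3 libraries their median was 0.27. In Q808 against Con. they were 4, beside 3.46% of all genes. They were 2 with no filter, with median ratio scaling or with all groups in 1 fit, beside 3.69%, 3.21% and 3.02%. By overlap they were 8, beside 20.0%, and their median was 0.44 without the 3 libraries. With 1 library left out in turn, PTZ against Con. gave 249 to 1135 genes, 1 to 3 members and a median of 0.01 to 0.53, Q808 against PTZ gave 132 to 1569 genes, 0 to 3 members and a median of 0.03 to 0.76, and Q808 against Con. gave 279 to 1799 genes, 1 to 9 members and a median of 0.34 to 1.25. The ranges of the Q808 comparisons include fits that leave 1 Q808 rat. The cause of these changes was not tested. Single members moved by more than the spread between rats in 6, 12 and 17 of the alternative values in these comparisons, and *Flt4* was not tested at a mean of at least 1 FPKM. For the comparisons with Q808, same-numbered libraries correlated with -0.295 and 0.322 (PTZ) and with -0.379 and 0.527 (Con.). In all comparisons same-numbered libraries are different rats. The Q808 group has 2 rats that differ from each other in most members, and FPKM carry no read counts.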
